A study of Mus musculus with 12 samples.

Results

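The 8 genes described here are B4galnt3, Spon2, Arhgap20, Sphkap, Rd3l, Adcy1, Erich5 and Themis3, which lie on 8 different autosomes. They were picked by name, out of 35275 genes in the deposited table, for large differences in read count between the 6 female and the 6 male libraries. Their female against male values are therefore a description and carry no test. All 8 were among the 13857 genes that passed a filter on low counts, but B4galnt3 and Erich5 reached its level of 0.584 CPM (counts scaled to library size) in 6 females and 0 males, and Spon2 in 0 females and 5 males.

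The tissue was the lateral choroid plexus, the sheet of secretory epithelium on a vascular stroma that hangs in the lateral brain ventricles and makes cerebrospinal fluid, taken from adult mice labelled C57BL6. The 12 RNA libraries form 4 groups of 3: hoz females and wt females, both taken in proestrus, and hoz males and wt males. The wt mice were Abhd2+/+ and the hoz mice were Abhd2-/-, a knockout line on a similar background. All groups carry the same strain label, the labels name no drug or other agent, and how the knockout allele was made is not stated in them. Abhd2 is a lipid hydrolase that progesterone activates in human sperm. Sex chromosomes and the hormonal state of proestrus differ together between the females and the males, so they cannot be told apart here. Anything else that differed between the female and male libraries, such as time of collection or batch, could not be told apart from them either. The labels do not say whether each library came from 1 animal, and the p-values measure only the spread between these libraries, which may be technical.

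Proestrus is the stage of the rodent cycle in which ovarian estrogen peaks before ovulation and progesterone and prolactin surge. Choroid plexus epithelium carries the prolactin receptor and responds to hormones in the blood. The 8 genes share no pathway. B4galnt3 encodes a Golgi enzyme that adds N-acetylgalactosamine to N-glycans, forming the LacdiNAc unit. Spon2 (mindin) is a secreted matrix protein that binds integrins. Arhgap20 is a GTPase activating protein that acts downstream of Rap1, Sphkap anchors protein kinase A and binds sphingosine kinase 1, and Adcy1 is an adenylyl cyclase that calcium and calmodulin stimulate. Rd3l is a relative of Rd3, which inhibits retinal guanylyl cyclases, and Themis3 belongs to the family of Themis, a signalling protein of developing T cells.

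Promoters are shown for 3 of the genes because the data bear on them: B4galnt3 had the largest difference of the 8, its window lies inside an overlapping gene that was read almost only in females, and Adcy1 and Sphkap are cAMP pathway genes that were both higher in males. RefSeq windows were found for 5 of the 8 genes (GRCm38.p6), and each line gives the 250 bases before the RefSeq start, 5′ to 3′ on the gene's strand. The RefSeq start can differ from the deposited one. For B4galnt3 the window lies upstream of the deposited 5′ end at 120294559 and apart from it. The Rd3l window (111980752 to 111981001) lies within the deposited gene (111979111 to 111981317). Capitals mark letters of the motifs named in the next paragraph.
B4galnt3 (chr6:120294898-120295147, minus strand): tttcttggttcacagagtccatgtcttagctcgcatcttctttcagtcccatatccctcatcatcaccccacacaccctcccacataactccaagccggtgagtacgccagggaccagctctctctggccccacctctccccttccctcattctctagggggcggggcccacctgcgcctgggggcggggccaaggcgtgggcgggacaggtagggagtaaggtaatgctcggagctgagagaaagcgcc
Sphkap (chr1:83408201-83408450, minus strand): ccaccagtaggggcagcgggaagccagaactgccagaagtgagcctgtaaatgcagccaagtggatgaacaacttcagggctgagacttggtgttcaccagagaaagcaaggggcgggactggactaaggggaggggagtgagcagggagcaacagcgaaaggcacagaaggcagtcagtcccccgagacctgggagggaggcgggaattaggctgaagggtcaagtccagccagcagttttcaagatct
Adcy1 (chr11:7063183-7063432, plus strand): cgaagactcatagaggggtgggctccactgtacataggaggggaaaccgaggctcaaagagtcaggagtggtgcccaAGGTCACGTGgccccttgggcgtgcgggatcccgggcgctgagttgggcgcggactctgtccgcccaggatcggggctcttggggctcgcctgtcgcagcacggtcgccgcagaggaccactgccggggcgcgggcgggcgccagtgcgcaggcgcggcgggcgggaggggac

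The windows differed in base composition. GC content was 60.8% with 10 CpG in B4galnt3, 57.6% with 5 CpG in Sphkap and 71.2% with 26 CpG in Adcy1, against 76.0% with 37 CpG in Arhgap20 and 39.6% with 0 CpG in Rd3l. The median over all 32851 windows was 52.4% with 6.0 CpG. The windows with the 50 bases after the start, 300 in all, were searched on both strands. The full palindromic estrogen receptor element was in 0 of the 5 windows and 0.07% of all windows, and the full palindromic progesterone and glucocorticoid receptor element in 0 of 5 and 0.00913%. Their shorter forms AGGTCA and TGTTCT were in 1 of 5 (Adcy1, 16.3% of all windows) and 0 of 5 (19%). The STAT motif TTCNNNGAA was in 0 of 5 (8.3%), and the cAMP response motif TGACGTCA (1.79%) and its short form TGACG (20.8%) were each in 0 of 5. Searched only after the profiles below had been seen, the E-box CACGTG was in 1 of 5 (Adcy1, 7.15%) and the D-box TTATGNAA in 0 of 5 (3.38%). In Adcy1 the AGGTCA and CACGTG matches overlap, as the capitals show.

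Summed reads per library ran between 5975707 and 16000137 in hoz females and between 8011557 and 32154836 in wt females, against 11842276 to 47903184 in hoz males and 18252548 to 30120598 in wt males. The labels held for the deleted gene and for sex: Abhd2 stood at 48.7 to 60.8 CPM in the hoz libraries and 1862 to 2433 CPM in the wt libraries, and Ddx3y, a Y-linked helicase gene, had 0 reads in every female library. Epithelial markers dominated, with 12 genes summing to 164950 to 178159 CPM in females and 156973 to 175849 CPM in males. Fewer cells of a type and less RNA per cell cannot be told apart in such bulk samples. Neuron markers (16 genes) summed to 129 to 164 CPM in females and 124 to 178 CPM in males. Pituitary markers (10 genes) summed to 30.8 to 69.2 CPM in females and 31.6 to 49.6 CPM in males. The hormone genes Prl and Gh were among the 5 largest autosomal differences, but 0 of 5 pituitary markers tested were called. Prl ran from 0.315 to 17.3 CPM in females and from 0 to 1.56 CPM in males. Gh ran from 0.126 to 10.2 CPM in females and from 0 to 12.7 CPM in males, with wt male 1 the highest. Lymphocyte markers (10 genes) summed to 1.01 to 2.67 CPM in females and 1.49 to 2.21 CPM in males. By the mean log2 CPM of the neuron list, wt male 1 stood 1.15 and hoz female 1 stood 0.66 above the mean of the 12 libraries. Between females and males, 3 of 15 neuron markers tested had a log2 fold change above 0, with 1 called lower. Within wt it was 2 of 15 (median -0.94) and within hoz 12 of 15 (0.51). Above 0 were 8 of 9 endothelium and 10 of 12 epithelium markers, but 1 of 10 oligodendrocyte and 0 of 6 erythroid markers. Called higher were 2 ependymal, 2 fibroblast and 1 each of epithelium, mural cell and oligodendrocyte markers, beside 8.30% of all tested genes called. The part of any of these in the results was not tested.

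By fitted log2 fold change of females over males, 3 of the 8 genes were higher and 5 were lower in females. Ranked by the size of that change among 13365 tested autosomal genes, B4galnt3 was 2, Spon2 3, Erich5 14, Arhgap20 20, Rd3l 24, Adcy1 75, Sphkap 77 and Themis3 125. The choice set no numeric threshold, and many genes of similar size are not among the 8: Ciart (3.52), Slc13a3 (2.87) and Arntl (-2.51) lie just beside Spon2 (-3.54). Over all tested genes, 8.30% were called between females and males at an adjusted p under 0.05, 2.86% had every female above every male and 2.38% every female below every male. The females and males did not overlap for 5 of the 8 genes (B4galnt3, Spon2, Arhgap20, Rd3l and Erich5) and did for 3, which follows from how they were chosen.

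**Figure D1:**
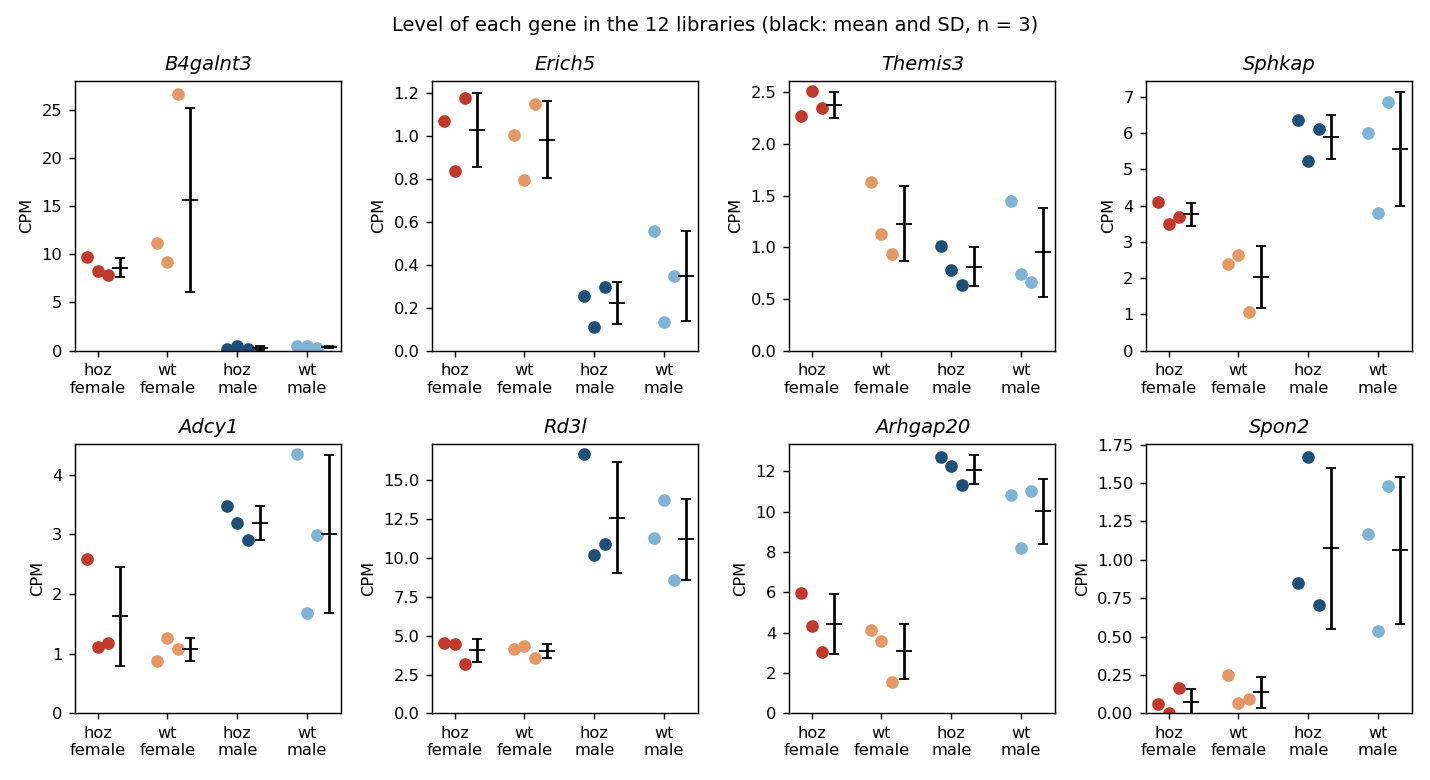
Level of each of the 8 genes in CPM (linear axis from 0, 1 panel a gene) by group: points are single libraries, and the black bar is the mean with the SD over 3 libraries; the lower bar of Spon2 in hoz females is cut off at 0. B4galnt3, Erich5 and Themis3 are higher in females and the other 5 genes in males, with wt female 3 far above the other females for B4galnt3.

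B4galnt3 (ENSMUSG00000041372, chromosome 6, 120203073 to 120294559, minus strand, mm10) was barely detected in males. It had 9.70, 8.22 and 7.89 CPM in hoz females and 11.2, 9.20 and 26.6 CPM in wt females, against 0.169, 0.513 and 0.213 CPM in hoz males and 0.445, 0.471 and 0.272 CPM in wt males. The lowest female lay above the highest male, and wt female 3 stood alone at the top. The means were 12.1 ± 7.20 CPM in females and 0.347 ± 0.147 CPM in males (SD, n = 6 each), a log2 fold change of 5.01. Pooled over libraries, 1345 reads in females stood against 64 in males, a 44.1-fold higher share of reads (95% exact interval 34.3 to 57.6, counting error only). Of the female reads, 857 came from wt female 3. Without that library the pooled ratio was 25.9 (19.9 to 34.1) and the log2 fold change 4.67.

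The 5′ end of B4galnt3 overlaps D330020A13Rik (chromosome 6, 120294364 to 120295432, plus strand), whose function is not described here. The spans share 196 bases, of which 169 are exonic in both genes in GENCODE release M21. D330020A13Rik had too few reads for the filter, 39 in all, of which 38 were in the 6 females and 1 in a wt male. Its levels were 0.252, 0.418 and 0.336 CPM in hoz females and 0.125, 0.595 and 0.59 CPM in wt females, against 0, 0, 0 CPM in hoz males and 0, 0.0337, 0 CPM in wt males. It was thus detected in every female and in 1 of 6 males. If the reads were counted without regard to strand, those in the shared exon cannot be assigned to one of the 2 genes, and the labels do not state the strand setting. The nearest tested genes were Ccdc77 (29764 bases away, log2 fold change 0.16, adjusted p = 0.511) and Wnk1, a kinase that regulates chloride transport (164401 bases, 0.07, adjusted p = 0.640), and neither was called.

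**Figure D2:**
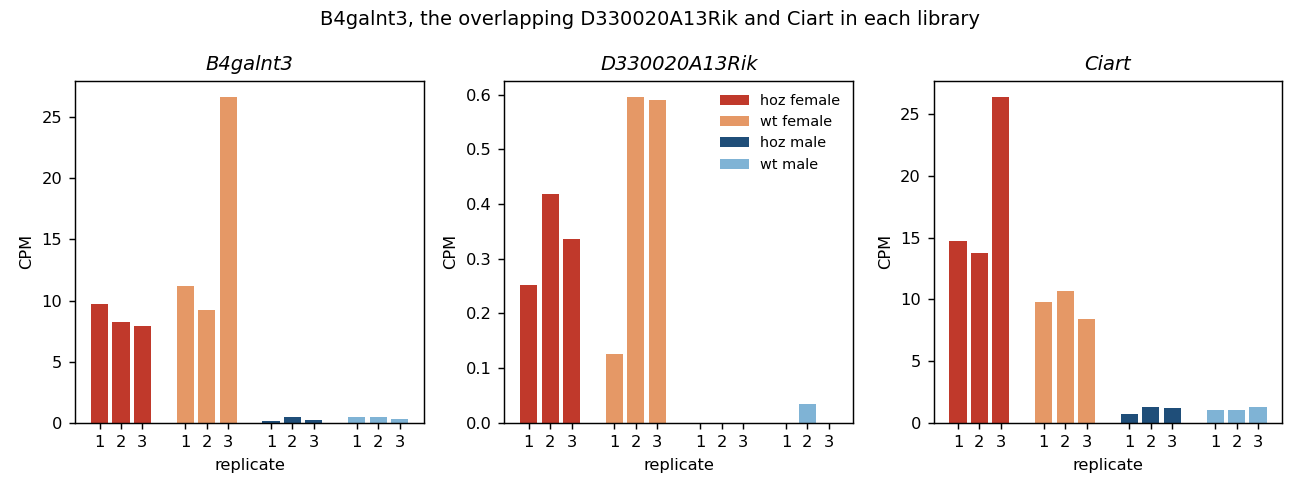
Level in CPM (linear axes from 0, different scales) of B4galnt3, of D330020A13Rik, which overlaps its 5′ end on the other strand, and of the clock gene Ciart in each of the 12 libraries, 1 bar a library. All 3 are higher in females than in males, but the highest library is wt female 3 for B4galnt3, wt female 2 for D330020A13Rik and hoz female 3 for Ciart.

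Erich5 (ENSMUSG00000044726, chromosome 15, 34453312 to 34473892, plus strand), a gene for a glutamate rich protein with no role stated here, was the second of the genes higher in females. Its levels were 1.07, 0.836 and 1.18 CPM in hoz females and 1.0, 0.794 and 1.15 CPM in wt females, against 0.254, 0.111 and 0.299 CPM in hoz males and 0.557, 0.135 and 0.35 CPM in wt males. All females lay above all males, and the females of the 2 genotypes covered nearly the same range. The gene was shallow, with 3 to 37 reads in a library, and the pooled ratio of females over males was 4.06 (95% exact interval 2.80 to 5.95, counting error only). The nearest tested genes on both sides, Rpl30 (-0.10, adjusted p = 0.629) and Hrsp12 (-0.09, adjusted p = 0.662), were not called.

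Themis3 (ENSMUSG00000024105, chromosome 17, 66555252 to 66594621, minus strand) had its high values in hoz females. It stood at 2.27, 2.51 and 2.35 CPM in hoz females and 1.63, 1.12 and 0.932 CPM in wt females, against 1.02, 0.78 and 0.64 CPM in hoz males and 1.45, 0.74 and 0.661 CPM in wt males. The hoz females lay above every other library, while the wt females and wt males overlapped. The log2 fold change of females over males was 1.61 in hoz and 0.33 in wt. Libraries held 12 to 36 reads of the gene. Its relatives were lower still: Themis averaged 0.0267 ± 0.0317 CPM in females and 0.00727 ± 0.0113 CPM in males, and Themis2 0.516 ± 0.315 CPM in females and 0.491 ± 0.191 CPM in males (SD, n = 6 each). Rab12, a small GTPase gene 35535 bases away, fell by 0.33 on the log2 scale in females (SE 0.0516, adjusted p = 0.000718, edgeR), at 24.1 ± 0.761 CPM in females and 30.3 ± 1.63 CPM in males (SD, n = 6 each), with no overlap of the sexes.

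Spon2 (ENSMUSG00000037379, chromosome 5, 33213518 to 33218238, minus strand) was close to the detection limit in females. Reads numbered 1, 0 and 1 in hoz females and 2, 1 and 3 in wt females, against 10, 75 and 33 in hoz males and 21, 16 and 38 in wt males. In CPM these were 0.063, 0 and 0.168 in hoz females and 0.251, 0.0662 and 0.0932 in wt females, against 0.847, 1.67 and 0.704 in hoz males and 1.17, 0.538 and 1.48 in wt males. The 8 female reads all lay at or under 3 in a library, and 3 reads correspond to 0.504 CPM in the shallowest female library, hoz female 3. Pooled, the share of reads was 11.5 times higher in males (95% exact interval 5.72 to 27.0, counting error only). Of 13 other spondins, thrombospondins and integrin partners tested, 0 rose and 2 fell in females: Thbs1, a matrix protein that activates TGF-beta, was at 45.2 ± 5.60 CPM in females and 61.0 ± 7.31 CPM in males (-0.43, adjusted p = 0.00570), and Thbs2 at 40.2 ± 2.97 and 47.8 ± 2.81 CPM in females and males (-0.24, adjusted p = 0.00881). The median log2 fold change of the 13 was 0.03, beside -0.00 over all tested genes.

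Arhgap20 (ENSMUSG00000053199, chromosome 9, 51765337 to 51853856, plus strand) was higher in males. Its levels were 5.98, 4.32 and 3.02 CPM in hoz females and 4.14, 3.57 and 1.55 CPM in wt females, against 12.7, 12.3 and 11.3 CPM in hoz males and 10.9, 8.18 and 11 CPM in wt males. The sexes did not overlap, the males were tight, and wt female 3 was the lowest library. The log2 fold change was -1.60, from 281 reads in females and 1952 in males. The antisense gene Arhgap20os shares 162 exonic bases with it but held 4 reads in all 12 libraries.

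Rd3l (ENSMUSG00000091402, chromosome 12, 111979111 to 111981317, minus strand) was the most even of the 8 genes within groups, with a within-group SD of 0.302 on the log2 scale. It had 4.54, 4.46 and 3.19 CPM in hoz females and 4.14, 4.37 and 3.54 CPM in wt females, against 16.7, 10.2 and 10.9 CPM in hoz males and 11.3, 13.7 and 8.56 CPM in wt males. The sexes did not overlap, and the log2 fold change was -1.55 in hoz and -1.51 in wt. Rd3l lies within the span of Tdrd9, a germline helicase gene on the opposite strand, but shares 0 exonic bases with it. Tdrd9 was not called, at 1.20 ± 0.244 CPM in females and 1.17 ± 0.215 CPM in males (SD, n = 6 each; log2 fold change 0.01, SE 0.194, adjusted p = 0.995). The relative Rd3 was also expressed, at 65.3 ± 3.22 CPM in females and 70.8 ± 3.43 CPM in males (-0.11, SE 0.0479, adjusted p = 0.175), and was not called. Of 6 other guanylyl cyclase and RD3 genes tested, 2 rose in females, Npr2 (0.37, adjusted p = 0.000454) and Npr1 (0.33, adjusted p = 0.000799), the cyclase receptors of natriuretic peptides, and 0 fell. The median was 0.10.

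Sphkap (ENSMUSG00000026163, chromosome 1, 83254139 to 83408200, minus strand) was lower in wt females than in any other group. It had 4.09, 3.48 and 3.69 CPM in hoz females and 2.38, 2.65 and 1.06 CPM in wt females, against 6.35, 5.21 and 6.10 CPM in hoz males and 6.01, 3.8 and 6.85 CPM in wt males. The hoz females overlapped the males through wt male 2, and wt female 3 was again the lowest library. The log2 fold change of females over males was -0.62 in hoz and -1.58 in wt. Of 18 genes of the sphingosine 1-phosphate list, 0 rose and 1 fell in females, and that gene was the kinase Sphk2, at 25.0 ± 2.35 CPM in females and 39.4 ± 2.65 CPM in males (SD, n = 6 each; -0.64, SE 0.0636, adjusted p = 7.37e-06). Sphk1, the named partner of Sphkap, was at 0.614 ± 0.352 CPM in females and 0.684 ± 0.350 CPM in males (-0.39, adjusted p = 0.628), and was not called.

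Adcy1 (ENSMUSG00000020431, chromosome 11, 7063489 to 7178506, plus strand) was also lower in females, with overlap. It had 2.58, 1.11 and 1.18 CPM in hoz females and 0.878, 1.26 and 1.09 CPM in wt females, against 3.47, 3.19 and 2.90 CPM in hoz males and 4.34, 1.68 and 3.00 CPM in wt males. Hoz female 1 alone overlapped the males, above wt male 2. The highest male and the highest female, wt male 1 and hoz female 1, were also the 2 libraries with the highest neuron score. Hoz male 3 had the lowest neuron score of the 12 libraries (-0.73) and 2.90 CPM, and hoz female 3 a score of 0.20 and 1.18 CPM. The part of neurons in the Adcy1 values was not tested. The log2 fold change of females over males was -1.11, and -0.97 with the neuron score as a covariate. None of the other adenylyl cyclases tested was called: Adcy5 was at 66.5 ± 7.34 CPM in females and 65.6 ± 2.83 CPM in males, and Adcy6 at 90.2 ± 5.81 CPM in females and 84.0 ± 6.35 CPM in males (SD, n = 6 each; log2 fold changes 0.02 and 0.10, adjusted p = 0.903 and 0.338). Of 29 other genes of adenylyl cyclases, protein kinase A and its anchors, 2 rose in females, Akap7 (0.38, adjusted p = 0.00488) and the catalytic subunit Prkacb (0.21, adjusted p = 0.0128), and 1 fell, the inhibitor Pkia (-0.41, adjusted p = 0.0235). Of 18 cyclic nucleotide phosphodiesterases, 0 rose and 2 fell, Pde9a (-0.33, adjusted p = 0.0103) and Pde10a (-1.27, adjusted p = 0.0213). The list medians were 0.01 and -0.02.

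Per length, in the deposited FPKM (fragments per length and depth), B4galnt3 had the highest mean level of the 8 genes in females and the lowest in males, at 3.30 in females and 0.0945 in males. Rd3l came next in females and first in males, at 2.62 in females and 7.70 in males, and Arhgap20 was at 0.524 in females and 1.55 in males. By the female median Rd3l (2.77) stood above B4galnt3 (2.58), whose mean includes 7.25 in wt female 3. Themis3 (0.999 and 0.489), Sphkap (0.354 and 0.703), Erich5 (0.422 and 0.119), Spon2 (0.0477 and 0.481) and Adcy1 (0.110 and 0.253) had means under 1 FPKM in females and in males. B4galnt3 and Rd3l overlapped in females (2.14 to 7.25 and 2.06 to 2.92 FPKM), and so did Sphkap and Erich5 (0.130 to 0.498 and 0.339 to 0.493 FPKM).

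**Figure D3:**
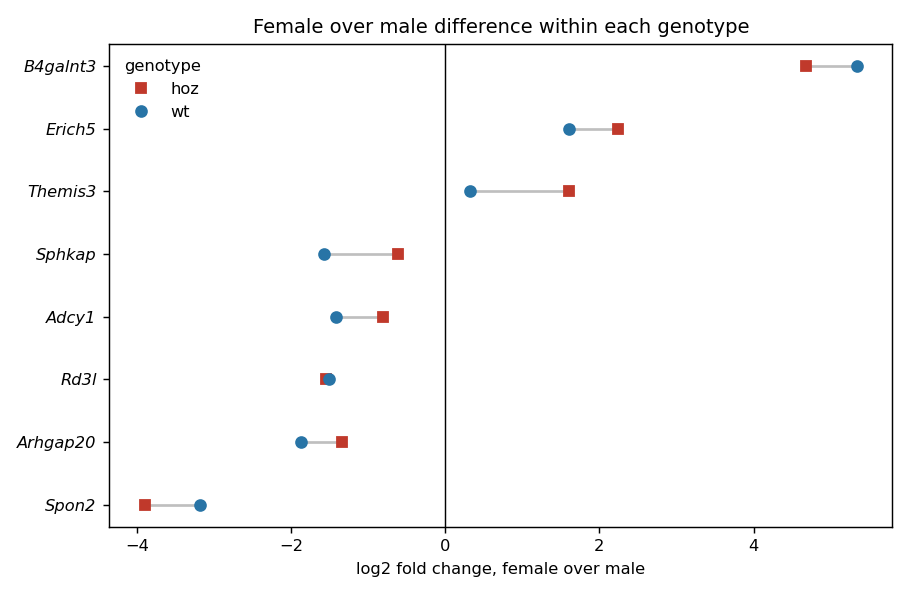
Fitted log2 fold change of females over males for each of the 8 genes, in hoz (squares) and in wt (circles), with a line joining both. Every gene keeps its direction in both genotypes, and the gap between them is widest for Themis3 (1.61 in hoz and 0.33 in wt).

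Genotype was not used to choose the genes, so it could be tested. None of the 8 genes was called between hoz and wt in edgeR's quasi-likelihood fit, adjusted over 13857 genes by Benjamini-Hochberg, either over both sexes, in males, or in females, and DESeq2 and limma voom also called 0 of the 8 in each. The share of all genes called was 0.0144% over both sexes, 0.00722% in males and 0.0144% in females. At an unadjusted p under 0.05 there were 2 of the 8 over both sexes (5.64% of all genes), 0 in males (2.17%) and 4 in females (6.78%). In the authors' deposited table, none of the 8 genes had an adjusted p under 0.05 in either sex, with 0.945 for Sphkap in females the lowest of the female values.

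The 4 genes in females were Themis3, Sphkap, Arhgap20 and B4galnt3. Themis3 averaged 2.38 ± 0.122 CPM in hoz females and 1.23 ± 0.361 CPM in wt females (SD, n = 3 each), with a log2 fold change of 1.03 (95% interval 0.30 to 1.77, adjusted p = 0.587). Sphkap averaged 3.76 ± 0.311 CPM in hoz females and 2.03 ± 0.852 CPM in wt females (SD, n = 3 each), a log2 fold change of 1.04 (0.33 to 1.75, adjusted p = 0.587). For these 2 genes the hoz and wt females did not overlap, as held for 13.7% of all tested genes. Neuron markers lay on the same side in females: 13 of 15 were above 0 between hoz and wt, with a median of 0.63 and 0 called. The neuron score was 0.66, -0.47 and 0.20 in hoz females and -0.32, -0.48 and -0.34 in wt females. Markers of some other cell types lay on the other side in the same comparison. Above 0 were 0 of 9 endothelium (median -0.35), 0 of 8 mural cell (-0.43) and 0 of 10 macrophage markers (-0.43). Astrocyte (3 of 9 above 0), oligodendrocyte (3 of 10) and fibroblast markers (3 of 9) lay mostly there too. So did ependymal (1 of 7) and lymphocyte markers (0 of 1). Mostly above 0 were choroid plexus epithelium (10 of 12, median 0.07), pituitary (3 of 5, 0.27) and erythroid markers (4 of 6, 0.16). In each of these lists 0 were called. The part of these cell types in the result was not tested. With that list's score as a covariate, the log2 fold change was 0.94 for Sphkap and 0.83 for Themis3. Without wt female 3 it was 0.58 for Sphkap and 0.82 for Themis3.

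Arhgap20 was at 4.44 ± 1.49 CPM in hoz females and 3.09 ± 1.36 CPM in wt females (SD, n = 3 each; log2 fold change 0.79, 95% interval 0.06 to 1.52, adjusted p = 0.689). B4galnt3 was at 8.60 ± 0.964 CPM in hoz females and 15.7 ± 9.55 CPM in wt females (SD, n = 3 each; -0.89, -1.71 to -0.08, adjusted p = 0.689). The groups overlapped for both. Without wt female 3 the values were 0.32 for Arhgap20 and -0.22 for B4galnt3. The intervals for the other genes in females held 0, from -0.49 to 0.65 for Rd3l to -3.29 to 2.02 for Spon2, which had 2 reads in hoz females and 6 in wt females. In males the narrowest interval was that of Rd3l (-0.28 to 0.53) and the widest that of B4galnt3 (-1.86 to 1.39), which had 35 reads in hoz males and 29 in wt males. Arhgap20 was the 1 gene whose male groups did not overlap, with a log2 fold change of 0.27 (-0.24 to 0.78, adjusted p = 1.0), against 6.65% of all tested genes.

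**Figure D4:**
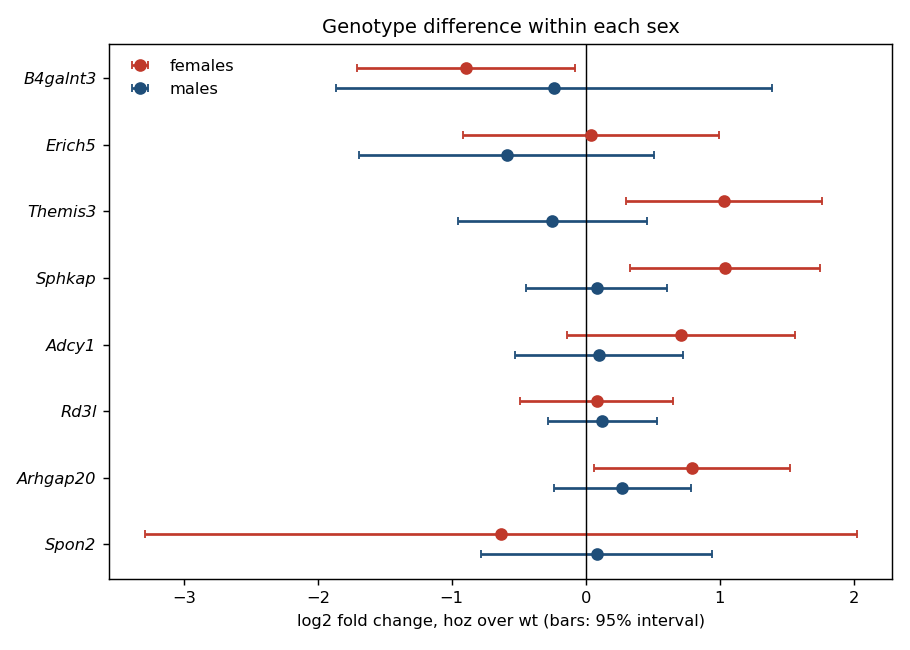
Log2 fold change of hoz over wt for each of the 8 genes in females (upper point) and in males (lower point), with 95% intervals from the fit. No gene was called after adjustment, Themis3 and Sphkap in females lie farthest above 0 (1.03 and 1.04), and the intervals of Spon2 and B4galnt3 are wide where reads are few.

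The interaction of sex and genotype, which asks whether the difference between females and males was itself different in hoz and wt, was called for 0 of the 8 genes by edgeR, by DESeq2 and by limma voom (0.00722% of all genes by edgeR). At an unadjusted p under 0.05 there were 2 of the 8, beside 3.64% of all genes. These were Themis3 (log2 difference 1.28, 95% interval 0.26 to 2.30, adjusted p = 1.0) and Sphkap (0.96, 0.08 to 1.84, adjusted p = 1.0). Without wt female 3 the Sphkap value was 0.50, and without wt male 1, wt female 3 and hoz female 2 together the Themis3 value was 0.65. All 15 neuron markers tested were above 0 in the same contrast, with a median of 1.61. The neuron score was highest in wt male 1 (1.15) and hoz female 1 (0.66), and was -0.47 in hoz female 2. Above 0 were 0 of 9 endothelium (-0.41), 0 of 8 mural cell (-0.50) and 0 of 10 macrophage markers (-0.44). Oligodendrocyte (4 of 10 above 0), fibroblast (2 of 9) and erythroid markers (2 of 6) were mostly below 0. So were ependymal (1 of 7) and lymphocyte markers (0 of 1). Mostly above 0 were choroid plexus epithelium (9 of 12, 0.10), astrocyte (7 of 9, 0.16) and pituitary markers (4 of 5, 2.08). In each list 0 were called. The part of these cell types was not tested. For Rd3l the interaction was -0.04 (-0.74 to 0.66, adjusted p = 1.0), so a difference of the size seen for Themis3 lies outside its interval.

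The genes whose levels followed the 8 most closely were found by the root-mean-square difference of log2 CPM profiles over the 12 libraries, each profile centred on its own mean. Since that measure contains the difference between females and males, the values of these genes are given with no test. Nearest to B4galnt3 was Ciart, a repressor of the circadian clock (distance 0.998), at 14.0 ± 6.54 CPM in females and 1.09 ± 0.236 CPM in males (SD, n = 6 each). The matrix proteoglycan gene Bgn, which lies on the X chromosome (1.24), and the clock output factor Dbp (1.42) came next. Spon2 lay nearest to Glipr2 (0.571) and to Arntl (0.630), the clock activator BMAL1, which was at 2.96 ± 0.688 CPM in females and 17.7 ± 4.98 CPM in males (SD, n = 6 each).

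Within females, B4galnt3 and its nearest gene parted. Ciart had 14.7, 13.8 and 26.4 CPM in hoz females and 9.78, 10.7 and 8.39 CPM in wt females, so that wt female 3, the highest library for B4galnt3, was the lowest female for Ciart. Dbp was likewise lowest among females there, at 74.2 CPM, and Bgn highest, at 243 CPM. In the same library Arhgap20 and Sphkap were lowest, 0.84 and 0.79 below the log2 mean of their group, while B4galnt3 was 0.92 above it.

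Between Arhgap20, Sphkap, Rd3l and Adcy1, the distances ran from 0.388 for Arhgap20 and Sphkap to 0.582 for Sphkap and Rd3l, with Adcy1 at 0.449 from Sphkap, 0.473 from Arhgap20 and 0.516 from Rd3l. Sphkap (0.388) was the nearest gene to Arhgap20, followed by the neurofilament gene Nefh (0.415), at 45.0 ± 14.5 CPM in females and 129 ± 15 CPM in males (SD, n = 6 each), and by Rd3l (0.431). Nearest to Rd3l were Rapgef5 (0.264), a Rap activator at 6.78 ± 0.789 CPM in females and 15.4 ± 1.32 CPM in males (SD, n = 6 each), Cdkn1a (0.347), the cell cycle inhibitor p21, and Syt17 (0.374). Sphkap lay nearest to Bai2 (0.368) and St8sia6 (0.373), a sialyltransferase gene, and Adcy1 to Mex3b (0.313), Bai2 (0.378) and Palm3 (0.386). Erich5 lay nearest to the calcium channel gene Cacna1h (0.393), at 23.9 ± 3.26 CPM in females and 8.48 ± 1.64 CPM in males (SD, n = 6 each), 1810059H22Rik (0.394) and Cys1 (0.427), a ciliary protein gene. Themis3 lay nearest to 4930417H01Rik (0.363), Zfp455 (0.373) and the sialidase gene Neu2 (0.385).

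**Figure D5:**
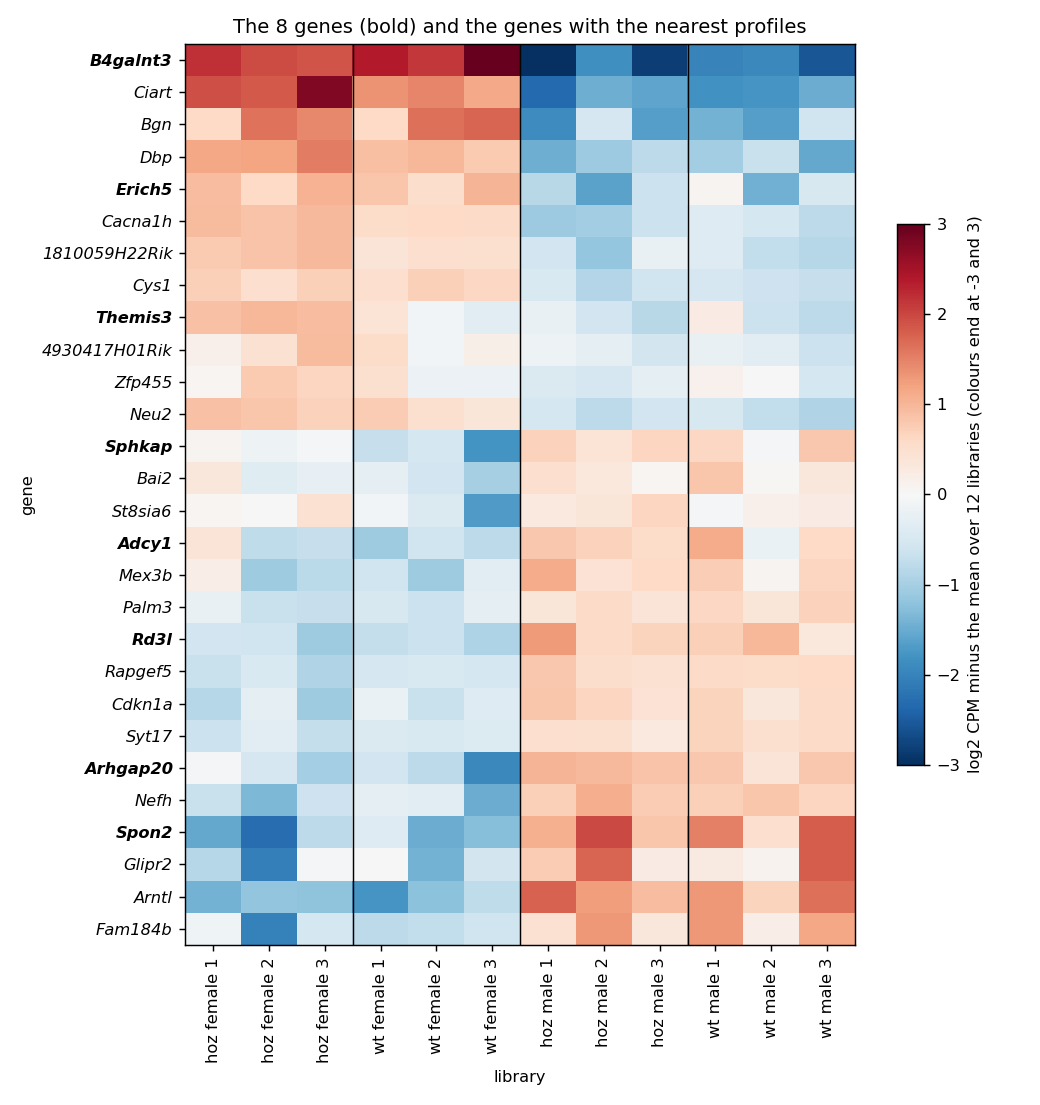
Log2 CPM minus the gene's mean over the 12 libraries (colour, red above and blue below the mean, ending at -3 and 3) for the 8 genes, in bold, and the genes nearest to each in profile; columns are libraries by group. Among the 8, B4galnt3 and Spon2 show the strongest colours, in opposite directions, and wt female 3 stands out as high for B4galnt3 and low for Sphkap and Arhgap20.

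The remaining lists were read in the same contrast. Over all pathway lists without the 8 genes, 24 of 163 genes were called between females and males, or 14.7%, with 12 higher and 12 lower in females. Of all tested genes 8.30% were called. All lists were chosen with earlier results of these data known, so the larger share is a description and not independent evidence. Without wt male 1, wt female 3 and hoz female 2 together, 14 of the 163 were called, or 8.59%, beside 3.42% of all genes tested in that fit. Of 18 other glycosyltransferases of N-glycans and LacdiNAc, 1 rose, the sialyltransferase St3gal4 (0.24, adjusted p = 0.0168), and 1 fell, the lactosylceramide synthase gene B4galt6 (-0.26, adjusted p = 0.00182). B4galnt4, which makes the same LacdiNAc unit as B4galnt3, was at 0.147 ± 0.103 CPM in females and 0.201 ± 0.270 CPM in males (SD, n = 6 each) and did not pass the filter. Of 7 other Themis and T cell receptor genes tested, 0 were called, with a median of 0.06, and Cd3e, which defines T cells, was at 0.0261 ± 0.0502 CPM in females and 0.0330 ± 0.0324 CPM in males (SD, n = 6 each).

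Of 15 steroid receptor and response genes tested, 5 rose and 1 fell in females, with a median of 0.14. Of all tested genes 8.30% were called, and this list too was chosen with earlier results known. Sgk1, a kinase induced by corticosteroids, was at 510.3 ± 74.2 CPM in females and 356 ± 47.6 CPM in males (0.51, adjusted p = 0.00420), and Tsc22d3, the glucocorticoid induced leucine zipper gene, at 25.1 ± 5.44 CPM in females and 12.9 ± 1.22 CPM in males (0.93, adjusted p = 5.01e-04). The progestin receptor gene Paqr9 (0.44, adjusted p = 1.59e-04) and the clock gene Per1 (1.35, adjusted p = 0.00987) also rose, and so did Zbtb16, a transcription factor gene (2.15, adjusted p = 0.0286). The gene that fell was Paqr5, of the same progestin receptor family as Paqr9 (-0.22, adjusted p = 0.0125). Of 14 prolactin and growth hormone signalling genes, 2 rose, Socs2 (1.01, adjusted p = 1.23e-05) and Cish (0.80, adjusted p = 0.0465), feedback inhibitors that STAT5 induces, and 1 fell, Stat5a (-0.29, adjusted p = 0.00978). The prolactin receptor Prlr was at 1329 ± 111 CPM in females and 1310 ± 72.4 CPM in males (0.02, adjusted p = 0.863). The receptors Esr1 and Pgr did not pass the filter, at 0.365 ± 0.244 and 0.0835 ± 0.103 CPM in females and 0.118 ± 0.0833 and 0.0884 ± 0.0854 CPM in males (SD, n = 6 each).

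Genes beside the 8 in the genome were read in the same contrast. Of the 16 nearest tested genes on either side, 9672 to 628096 bases away, 2 were called between females and males, beside 8.30% of all tested genes: Rab12, given above, and Ctbp1, a transcriptional corepressor gene beside Spon2 (-0.16, SE 0.0367, adjusted p = 0.0133), at 157 ± 3.46 CPM in females and 175 ± 4.85 CPM in males (SD, n = 6 each). Igfbp3 beside Adcy1 had the largest fold change of the 14 not called (0.82, SE 0.448, adjusted p = 0.339). No gene overlaps Spon2, Adcy1, Erich5 or Themis3 in the deposited table, and the pseudogene Gm6374 within Sphkap held 1 read in all.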

How the data were processed

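RNA of the lateral choroid plexus was enriched with oligo dT beads and sequenced as paired ends, per the labels' protocols. The read counts per gene were made by the authors and are raw, per the file headers. The deposited FPKM equal those counts scaled by the deposited gene length and the summed reads (largest relative difference 4.97e-12). The deposited log2 fold changes and p-values are the authors' own. Per the submitters' processing notes the build is mm10 and the tools include STAR 2.5, HTSeq 0.6.1, edgeR 3.16.5 and DESeq2, with no role given, and they do not state whether counting used strand. Coordinates are the deposited ones, and 5 of the 8 genes have the same ones in GENCODE release M21.

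Counts were fitted with edgeR 4.0.16 in R 4.3.3: filterByExpr by group (10 reads at the median depth, in 3 libraries), TMM scaling, and a robust quasi-likelihood test on the 4 group means of all 12 libraries. P-values were adjusted over 13857 genes by the Benjamini-Hochberg method, two-sided, and a call is an adjusted p under 0.05. The mean over both genotypes gave the female over male contrast. CPM use the scaled totals, log2 CPM a prior count of 2, and intervals of fold changes the fit's SE (95%). The script was tested on simulated data. DESeq2 1.42.0 and limma 3.58.1 were alternatives. Libraries are numbered in listed order. The named genes were the 8, their overlapping and nearest tested genes, the 3 nearest profiles each, up to 4 called genes of each list, and markers. Others (Tdrd9, Rd3, Sphk1, Adcy5, Adcy6, Themis, Themis2, B4galnt4, Cd3e, Prlr, Esr1, Pgr, Paqr5, Zbtb16, Slc13a3, Prl, Gh and Ddx3y) were chosen after values were seen. The 8 genes and all lists were chosen with earlier results of these data known. No 2 libraries of a group agreed within sampling noise (chi-square per gene 2.99 to 22.7). Precision follows depth, and intervals on reads cover counting error only. Some results of these lists are not reported here. The pooled read ratio with each library left out was added after seeing the data.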

Additional observations from a re-analysis of the deposited data

Results flagged for a closer look

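Each of the 8 genes was checked for a library that stands apart from the other 5 of its sex, which made 16 sets of 6 libraries, and chance flags about 1 set in 20. In 2 sets the highest library lay farther from the next than Dixon's 95% limit for 6 values allows. B4galnt3 in wt female 3 was at 26.6 CPM, with the next female at 11.2 CPM, a gap of 0.825 of the female range. By mean log2 CPM against the mean of all libraries, wt female 3 had the highest marker score of the 12 libraries for ependymal cells (0.93), endothelium (0.69), fibroblasts (0.36) and macrophages (0.44). Adcy1 in hoz female 1 was at 2.58 CPM, with the next female at 1.26 CPM, a gap of 0.778 of the female range. Hoz female 1 had the highest neuron score of the females (0.66 above the mean of all libraries, log2). The part of either library's other features in these values was not tested.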

How the results depend on the processing

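The count of the 8 genes called was 0 for hoz against wt over both sexes, in males and in females and for the interaction under every alternative run: DESeq2 size factors, unscaled totals, no filter, DESeq2, limma voom, the neuron score as a covariate, fits of only the groups compared, 3 libraries left out together (wt male 1, wt female 3 and hoz female 2) and each library left out in turn. The count of pathway genes called between females and males was 20 to 28 with each library left out and 14 with those 3 left out, where fewer samples were fitted. Of the fitted genotype and interaction values, 29 turned their sign, all for values that were not called, and the cause was not tested. With the neuron score as a covariate these were Adcy1 (interaction, -0.31), Erich5 (females, -0.19) and Rd3l (interaction, 0.062). With the 3 libraries left out they were Erich5 (both sexes, 0.086), Rd3l (females, -0.079) and Themis3 (males, 0.13), and with limma voom Rd3l (males, -0.046; interaction, 0.18). With each library left out in turn the log2 values ran between -0.21 and 0.44 for Adcy1, -0.94 and 0.11 for B4galnt3, -0.087 and 0.31 for Rd3l, -0.14 and 0.28 for Sphkap, -0.48 and 0.45 for Spon2 and -0.44 and 0.13 for Themis3 in males. They ran between -0.089 and 0.23 for Erich5 and -0.034 and 0.19 for Rd3l in females, and between -0.0016 and 0.20 for Rd3l over both sexes. For the interaction they ran between -0.041 and 0.92 for Adcy1, -1.01 and 0.045 for B4galnt3 and -0.22 and 0.17 for Rd3l. Every female against male value kept its direction, but the genes were chosen by that difference in these libraries, so this is no support for it. Spon2 was at -2.86 with limma voom. Depth limits Spon2 in females, where 3 reads are 0.0932 to 0.504 CPM, and B4galnt3 and Erich5 in males. No paired analysis was possible because the labels carry no replicate numbers.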
